A study of Mus musculus with 4 samples.

Results

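The transcripts described here encode the shelterin complex that caps chromosome ends, the telomere-associated tankyrases, and dyskerin of the telomerase particle. They were *Terf1*, *Terf2*, *Terf2ip*, *Tinf2*, *Acd*, *Pot1a*, *Pot1b*, *Tnks*, *Tnks2* and *Dkc1*, chosen by name, 10 of the 19452 genes that a probe set of the table named alone. Each was read by 1 probe set that named no other gene, 10344939 for *Terf1*, 10581523 for *Terf2* and 10543471 for *Pot1a* among them, and all 10 were tested. RNA bound by CUGBP1 was set against RNA recovered with control IgG from lysates of proliferating C2C12 (LKO1) myoblasts, to see which of these mRNAs were enriched with the protein. C2C12 is a mouse skeletal myoblast line, and every sample came from the same stable derivative, which carries an empty lentiviral vector and was kept in puromycin. The 2 CUGBP1 IP samples were precipitated with the monoclonal antibody 3B1 and the 2 control IgG samples with normal IgG, and each was read on its own Affymetrix array. No sample analysed here lacked CUGBP1, and the IgG samples were the only negative control. Input RNA was not analysed here, so enrichment relative to a transcript's amount in the lysate was not measured.

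CUGBP1, the product of *Celf1*, binds GU-rich elements of mRNAs, mostly in 3′ untranslated regions, and directs the messages to decay. Shelterin is the protein complex that covers telomeric repeats and keeps chromosome ends from being treated as breaks. TRF1 (*Terf1*) and TRF2 (*Terf2*) hold the double-stranded repeats, POT1 proteins hold the single-stranded overhang, and TIN2 (*Tinf2*) and TPP1 (*Acd*) join these subunits. RAP1 (*Terf2ip*) rides on TRF2. Mice differ from humans in having separate *Pot1a* and *Pot1b* genes. Tankyrases are poly(ADP-ribose) polymerases that release TRF1 from telomeres in human cells. Dyskerin (*Dkc1*) is a pseudouridine synthase that stabilises telomerase RNA and other H/ACA RNAs.

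Values are linear intensities divided by the 5th percentile of the same array, so a probe set without its transcript reads about 1. Dividing the mean CUGBP1 IP value by the mean control IgG value gives the signal-to-negative ratio, and the study took its top 5% as associated with CUGBP1. Here the top 5% was taken anew over the 21044 probe sets that name 1 gene, which put its lower limit at a ratio of 2.57. A transcript is called higher or lower here where limma gave an adjusted p under 0.05 over 21044 probe sets. A value at or below the 95th percentile of 1205 olfactory and vomeronasal receptor probe sets on its own array counts as background. That limit ran from 1.09 to 1.29 over the 4 arrays.

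The arrays differed in more than these genes. The array 95th percentile was 9.37 and 13.0 with CUGBP1, compared with 2.36 and 5.96 for control IgG, and 94.0% of probe sets had a log2 difference above 0, with a median of 0.29. The brighter replicate of each group was replicate 2, and what this brightness contributed to the values of single genes was not tested. *Rnd3*, which the study had assayed separately, read 26.51 and 26.85 with CUGBP1 and 1.53 and 2.38 for control IgG. *Smad7* had a log2 difference of 2.65 (limma adjusted p = 0.0373), and *Celf1* itself one of 2.01 by its brighter probe set (limma adjusted p = 0.103) and of 2.11 by its dimmer one (limma adjusted p = 0.0365). *Myc* and *Plk2* were not called, with log2 differences of 0.65 and 0.53 (limma adjusted p = 0.270 and 0.358). *Myod1*, a myoblast factor, read 18.8 and 23.2 against 1.77 and 3.30. Its ratio of 8.29 lay at the 99.6th percentile, in the top 5%. Its log2 difference of 3.11 had an SE of 1.15 and was not called (limma adjusted p = 0.0958). The 6 myoblast markers were above background on both CUGBP1 IP arrays, with sums of 112 and 154 there and of 40.8 and 112 in control IgG. Most of each sum was *Vim*, at 77.89, 114.15, 32.14 and 98.05 in the same order. Of 5 differentiated-muscle genes, *Myh1*, *Myh4* and *Ttn* were in background on every array, *Acta1* was above it on all 4 (2.99, 2.81, 1.31 and 1.95) and *Ckm* on 3 (1.41, 1.72, 1.08 and 1.31), in the order CUGBP1 IP and control IgG. Of 8 markers of leukocytes, endothelium and epithelium, *Krt8* alone was above background on all 4 arrays, at 1.13 to 1.60, and the summed level of the 8 ran from 9.45 to 10.2 in the CUGBP1 IP and from 8.45 to 9.18 in control IgG. *Ptprc*, *Pecam1*, *Epcam* and *Cdh5* were in background throughout.

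Of the 10 telomere transcripts, 3 were higher in the CUGBP1 IP, none was lower, and the same 3 lay in the top 5% of ratios. They were *Terf1*, *Terf2* and *Pot1a*, all encoding shelterin subunits that bind telomeric DNA, with ratios of 5.90 to 8.69. The other 7 had ratios of 1.20 to 2.09 and limma adjusted p-values of 0.0864 to 0.304. Among the 7 was *Pot1b*, whose protein also binds telomeric DNA. Its ratio, the 1.20, rests on values mostly in background, and it counts among the 9 and the 8 below. Over all probe sets 1.95% were called higher and 5.0% lay in the top of the ratios. The study named these 3 genes from the same samples, so their count is not independent evidence. Both CUGBP1 IP values exceeded both control IgG values for 9 of the 10, which was so for 66.3% of all probe sets, and 8 of the 10 had an unadjusted p under 0.05 and a higher value in the CUGBP1 IP, against 28.6%. The members' median log2 difference was 0.79, against 0.29 for all genes. Quantile normalization, which makes the arrays' distributions the same, brought these medians to 0.20 and -0.02. Both CUGBP1 IP values were above background for 9 of the 10 members and for 10767 of the 19452 genes. Among probe sets above background on at least 2 arrays, which leaves out *Pot1b*, the median was 0.92 for the members and 0.54 for all. The CUGBP1 IP arrays alone can pass a probe set through that filter, which selects in part for a high value there.

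**Figure D1:**
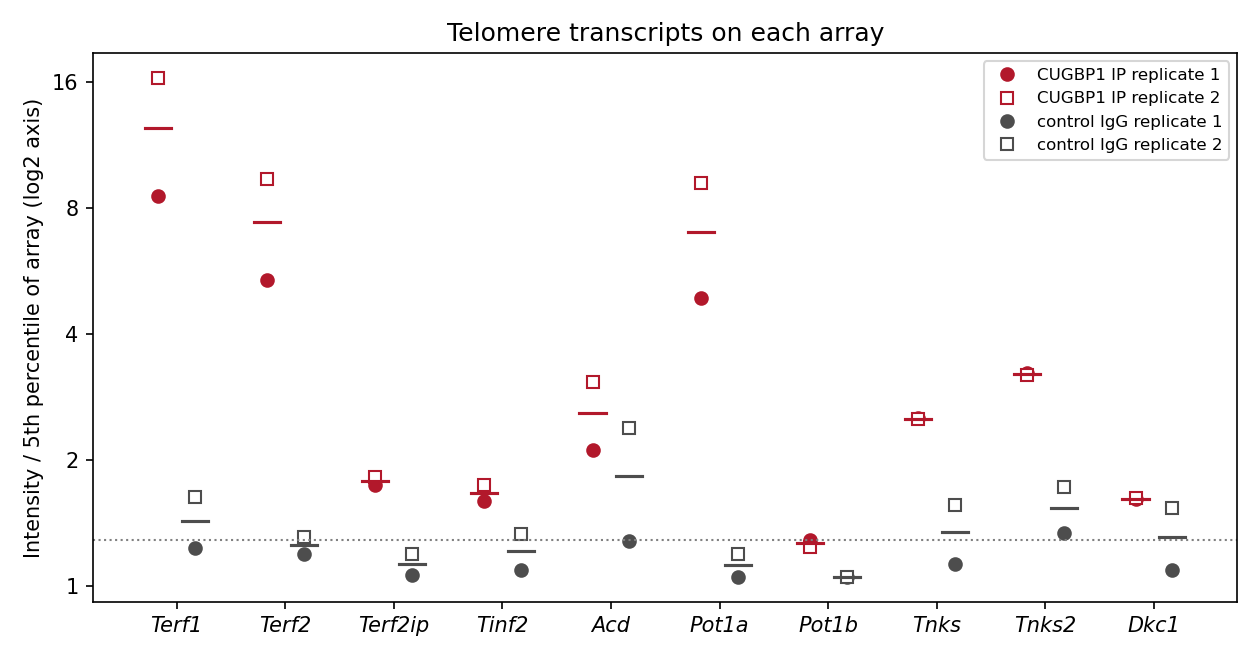
Intensity as a multiple of each array's 5th percentile (vertical log2 axis) of each telomere transcript on the 4 arrays. Red symbols are CUGBP1 IP and grey symbols control IgG, filled circles are replicate 1 and open squares replicate 2, bars are group means (n = 2), and the dotted line is the highest of the 4 background limits, 1.29. The CUGBP1 IP values of *Terf1*, *Terf2* and *Pot1a*, from 4.87 to 16.32, stand well clear of their control IgG values, while those of *Acd* overlap.

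*Terf1* had the highest ratio of the set. It read 8.53 and 16.32 with CUGBP1, compared with 1.23 and 1.63 for control IgG, all 4 values being above background. The groups were far apart, and the lower CUGBP1 IP value was 5.23 times the higher control IgG value. The means were 12.4 ± 5.51 against 1.43 ± 0.283 (SD, n = 2 each), a ratio of 8.69 that ranked 73 among all 21044 probe sets. The log2 difference was 3.06 (SE 0.83, limma adjusted p = 0.0277). Set against either control IgG sample alone, the ratio was 10.1 and 7.62.

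*Terf2* encodes the subunit that shapes the protective loop at the chromosome end. Its values were 5.37 and 9.38 with CUGBP1, compared with 1.19 and 1.31 for control IgG. Here too every value was above background and the groups did not meet, with pairwise ratios of 4.10 to 7.88. The mean of 7.38 ± 2.84 in the CUGBP1 IP stood against 1.25 ± 0.0849 in control IgG (SD, n = 2 each), a ratio of 5.90 at rank 172. The log2 difference was 2.51 (SE 0.62, limma adjusted p = 0.0180).

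*Pot1a* encodes the mouse POT1 protein that restrains the ATR response at the overhang. It read 4.87 and 9.16 with CUGBP1, compared with 1.05 and 1.19 for control IgG, where the first of the IgG values was in background. The lowest pairwise ratio was 4.09 and the highest 8.72. Its mean was 7.02 ± 3.03 against 1.12 ± 0.0990 (SD, n = 2 each), a ratio of 6.26 at rank 150. The log2 difference was 2.58 (SE 0.57, limma adjusted p = 0.00742), the lowest adjusted p among the 10.

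The pairwise ratios of *Terf1*, *Terf2* and *Pot1a* overlapped one another, which does not settle their order, since the 3 genes were read on the same arrays. They did not meet those of the other 7 genes, whose highest pairwise ratio was 2.41. In all 3 genes the second CUGBP1 IP replicate was higher than the first, and so was the 95th percentile of its array. Their ratios stayed in the top 5%, at the 98.3rd percentile or above, in 8 of the 8 alternatives that can move a ratio or its rank (both other scalings, the background filter, averaged probe sets and each array left out). When the arrays were scaled to their medians, quantile normalized or offset before the log, the difference fell to as low as 1.84 for *Terf1*, 1.48 for *Terf2* and 1.79 for *Pot1a*, and limma called all 3 each time. With any 1 of the 4 arrays left out limma called no probe set at all, and it called none with a spread that did not follow intensity. The log2 difference with an array left out ran from 2.59 to 3.53 for *Terf1*, from 2.10 to 2.91 for *Terf2* and from 2.12 to 3.03 for *Pot1a*. Between 955 and 6022 probe sets were then higher at an unadjusted p under 0.05.

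**Figure D2:**
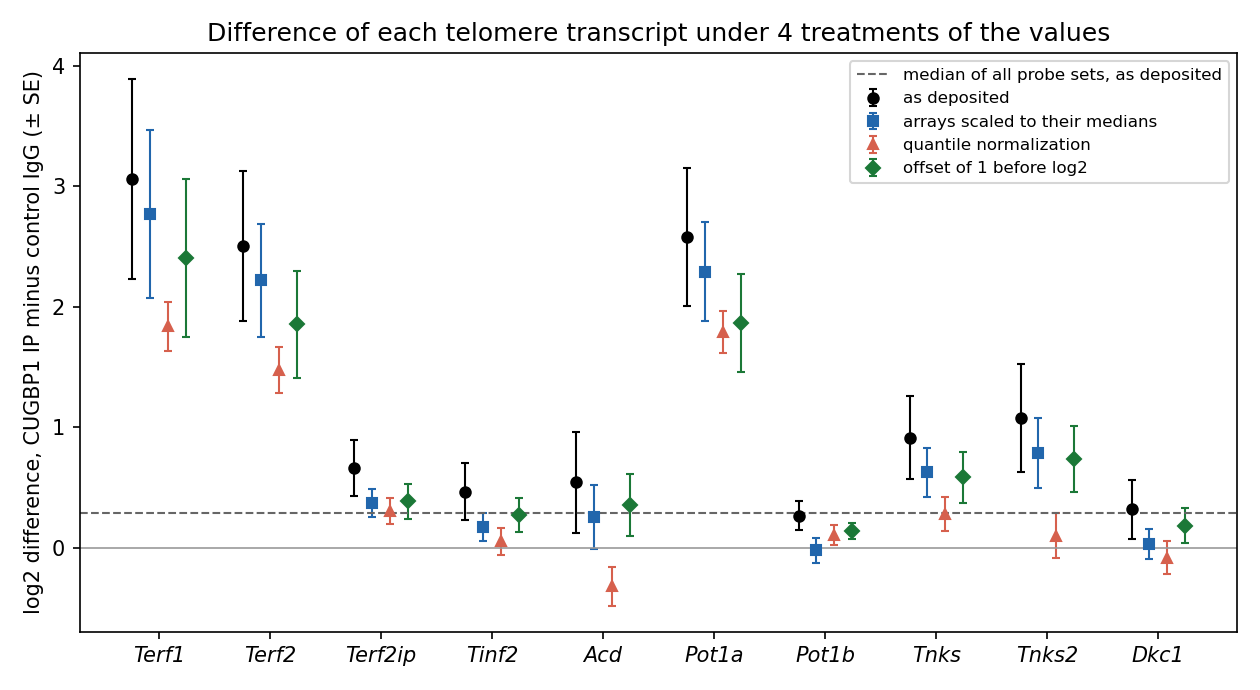
Log2 difference of each transcript, CUGBP1 IP minus control IgG (vertical axis), with its standard error from limma (bars; 2 arrays per group), for the deposited values and 3 other treatments. The dashed line is the median of all probe sets for the deposited values, 0.29; *Terf1*, *Terf2* and *Pot1a* stay above 1 under each treatment, and *Acd* and *Dkc1* fall below 0 after quantile normalization.

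*Pot1b*, the paralog whose protein limits resection of the C-rich strand, read 1.29 and 1.24 in the CUGBP1 IP and 1.05 on both control IgG arrays. Only the first CUGBP1 IP value was above background, so little *Pot1b* signal was measured in either group. The ratio of 1.20 is for that reason not a measured fold. The fitted log2 difference was 0.27 (SE 0.12, limma adjusted p = 0.139), and with the arrays scaled to their medians it was -0.020.

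The paralogs were also compared within each array, by the log2 value of the first minus that of the second. *Pot1a* minus *Pot1b* was measured on the first CUGBP1 IP array alone, at 1.92, because *Pot1b* was in background on the other 3. Against the background limit the difference was at least 2.83 on the second CUGBP1 IP array and at least 0.037 on the second control IgG array, and on the first control IgG array both genes were in background. The contrast of the deposited values, 2.31 between the group means, is therefore not a measured size. For *Terf1* minus *Terf2*, all above background, the 4 differences were 0.67, 0.80, 0.05 and 0.32, a contrast of 0.55. For *Tnks* minus *Tnks2* they were -0.36, -0.35, -0.25 and -0.14, a contrast of -0.16 that turned to 0.18 after quantile normalization. The deposited values of the groups did not overlap in any of the 3 pairs, but with 2 arrays against 2 an exact two-sided permutation test over 6 splits cannot go below p = 0.333, which each pair reached, also after adjustment over the 3 pairs. Only the contrast between the groups compares enrichment of the probe sets. The value on a single array is a difference of signal between probe sets and not of transcript amount.

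**Figure D3:**
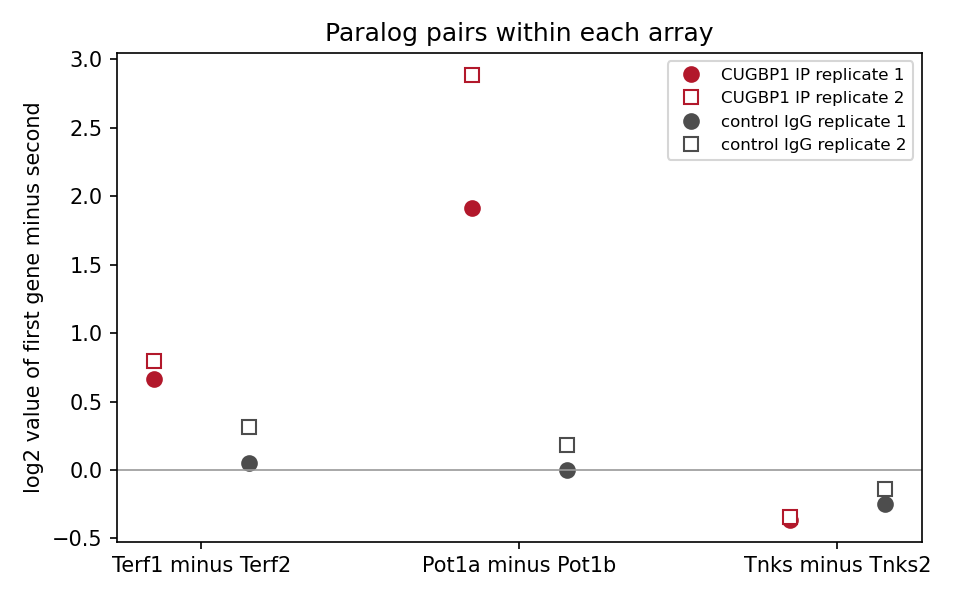
Log2 value of the first gene minus that of its paralog on each array (vertical axis), with CUGBP1 IP in red, control IgG in grey, replicate 1 as circles and replicate 2 as squares. *Pot1b* was in background on every array but the first CUGBP1 IP array, so the other 3 *Pot1a* minus *Pot1b* points are not measured sizes. *Terf1* minus *Terf2* moves by 0.55 and *Tnks* minus *Tnks2* by -0.16 between the groups.

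None of the 3 remaining shelterin transcripts was called. *Terf2ip*, encoding RAP1, read 1.74 and 1.82 with CUGBP1, compared with 1.06 and 1.19 for control IgG, where the first value was in background. Its groups were apart, with a ratio of 1.58. The limma log2 difference was 0.66 (SE 0.24, adjusted p = 0.0864), and it passed the threshold (limma adjusted p = 0.0265) with the arrays scaled to their medians, but was 0.30 (limma adjusted p = 0.247) after quantile normalization. *Tinf2*, whose product TIN2 bridges TRF1 and TRF2, read 1.59 and 1.74 against 1.09 and 1.33, with the first control IgG value in background. Its ratio was 1.38 and its log2 difference 0.47 (SE 0.24, limma adjusted p = 0.170), or 0.058 after quantile normalization.

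*Acd* encodes TPP1, the partner of POT1 that recruits telomerase. It read 2.11 and 3.07 with CUGBP1, compared with 1.28 and 2.38 for control IgG, and was the one member whose groups overlapped. Its size moved with each array left out. The ratio was 1.42 over all 4 arrays, 2.02 without the second control IgG sample, 1.09 without the first, 1.68 without the first CUGBP1 IP sample and 1.15 without the second. The log2 difference of 0.54 (SE 0.42, limma adjusted p = 0.304) turned to -0.32 after quantile normalization.

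Neither tankyrase passed the test, and both had higher ratios than the uncalled shelterin transcripts in the deposited values but not after quantile normalization, where *Terf2ip* (1.24) was above *Tnks* (1.22) and *Tnks2* (1.07). *Tnks* read 2.51 and 2.50 with CUGBP1, compared with 1.13 and 1.56 for control IgG. *Tnks2* read 3.23 and 3.18 against 1.34 and 1.72. In both genes the CUGBP1 IP replicates were nearly equal and clear of control IgG. The ratio of *Tnks* was 1.86, at the 87.1st percentile, and limma estimated 0.92 on the log2 scale (SE 0.35, adjusted p = 0.101). *Tnks2* had a ratio of 2.09 at the 90.9th percentile and a limma estimate of 1.08 on the log2 scale (SE 0.44, adjusted p = 0.124). Both ratios were under 2.57, the 95th percentile of all probe sets, and limma called *Tnks* with the arrays scaled to their medians (adjusted p = 0.0332). Quantile normalization lowered the log2 difference of *Tnks* to 0.28 (limma adjusted p = 0.424) and that of *Tnks2* to 0.10 (limma adjusted p = 0.847).

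*Dkc1* read 1.61 and 1.62 with CUGBP1, compared with 1.09 and 1.53 for control IgG. Its ratio of 1.23 lay at the 51.4th percentile. It was 1.48 against the first control IgG sample, whose value was in background, and 1.06 against the second. The log2 difference was 0.32 (SE 0.24, limma adjusted p = 0.296), close to the 0.29 of the median probe set, and -0.080 after quantile normalization. Among probe sets above background on at least 2 arrays, where the median was 0.54, its ratio lay at the 20.8th percentile. Probe sets can pass that filter on the CUGBP1 IP arrays alone, which selects in part for a high value there.

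The genes most like *Terf1* were found by the Euclidean distance between log2 values on the 4 arrays, among 19362 genes. The nearest was *Lypla2*, an acyl-protein thioesterase gene, at a distance of 0.165, which read 8.96, 16.74, 1.13 and 1.72 in the order CUGBP1 IP 1 and 2 and control IgG 1 and 2. *Hmgcs1*, encoding the cytosolic HMG-CoA synthase of sterol synthesis, followed at 0.310 with a ratio of 7.43. *Pgpep1*, encoding a pyroglutamyl peptidase, was next at 0.343 with a ratio of 6.93.

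Beyond shelterin, 5 lists of other telomere genes named 59 genes, of which 56 were measured. Of these 3 were called higher and none lower, against the 1.95% of all probe sets, and 2 were in the top 5%. The 3 were *Parn*, *Naf1* and *Rnf146*. Those in the top 5% as taken here were *Parn* and *Rnf146*, with ratios of 2.80 and 2.93. The study's own set began at a higher ratio than the limit used here, so these genes may lie outside it. Both CUGBP1 IP values exceeded both control IgG values for 38 of the 56, near the 66.3% of all probe sets. The median log2 difference was 0.41, against 0.29 for all genes.

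The telomerase list held 12 measured genes, with 2 called higher, against 1.95% of all probe sets. Its median log2 difference was 0.40, against 0.29 for all genes. *Parn*, a deadenylase that matures telomerase RNA among other transcripts, read 2.80 and 3.06 with CUGBP1, compared with 1.00 and 1.09 for control IgG, where both values were in background. *Naf1*, an assembly factor of H/ACA particles, read 2.80 and 3.44 against 1.11 and 1.44. *Parn* was at least 2.60-fold higher against the upper end of that background (limma adjusted p = 0.00742). *Naf1* differed by 1.30 on the log2 scale (SE 0.39, limma adjusted p = 0.0453), a call that was lost after quantile normalization (limma adjusted p = 0.0532), with the background filter (0.0536) and with probe sets averaged (0.0516). *Tert*, the catalytic subunit, was in background on all 4 arrays, at 1.03 to 1.13, so nothing can be said of its enrichment.

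The list of telomere replication and the CST complex held 12 measured genes and none was called higher by limma. An unadjusted p under 0.05 was reached by 4, against 28.6% of all probe sets, and the median log2 difference was 0.37, against 0.29 for all genes. *Dclre1b*, encoding the Apollo nuclease that TRF2 brings to telomeres, read 2.79 and 3.63 against 1.17 and 1.47. Its log2 difference of 1.28 (SE 0.40) missed the threshold at a limma adjusted p of 0.0563. *Fen1*, the flap nuclease of lagging-strand synthesis, was in background on both control IgG arrays and at least 1.43-fold higher in the CUGBP1 IP than that limit (limma adjusted p = 0.0942, not called). The helicase gene *Pif1* had a ratio of 1.11 and was not called (limma adjusted p = 0.438).

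The 11 genes of end protection and damage signalling had none called by limma. Here too 4 had an unadjusted p under 0.05, against the 28.6% of all probe sets, and the median log2 difference of 0.25 was below the 0.29 of all genes. *Ercc1*, part of an overhang-processing nuclease, read 3.16 and 7.26 against 1.39 and 4.36, so its groups overlapped. *Trp53bp1*, a double-strand break mediator, read 1.91 and 2.21 against 1.06, which was in background, and 1.31 (limma adjusted p = 0.0781). *Mre11a* (now *Mre11*), a nuclease gene of the break-sensing MRN complex, had the lowest ratio of the list at 1.04 (limma adjusted p = 0.752).

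Among 8 measured partners and substrates of tankyrases, *Rnf146* alone was called, against 1.95% of all probe sets. The list's median log2 difference was 0.52, against 0.29 for all genes. RNF146 is the ubiquitin ligase that recognises poly(ADP-ribose) on tankyrase targets. The brighter *Rnf146* probe set read 3.66 and 4.32 with CUGBP1, compared with 1.16 and 1.56 for control IgG, or 1.56 on the log2 scale by limma (SE 0.47, adjusted p = 0.0475). The other probe set of *Rnf146* read 1.26 and 1.53 against 1.06, which was in background, and 1.19. The probe sets thus differed in the size of the ratio, 2.93 and 1.24. With both averaged the gene was not called (limma adjusted p = 0.0756). *Fnbp1* followed in ratio with 1.71 (limma adjusted p = 0.108), and *Axin2*, a Wnt pathway scaffold gene in background on both control IgG arrays, was at least 1.21-fold above that limit (limma adjusted p = 0.188, not called).

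The 13 measured genes of other telomere chromatin and TRF1 regulation had none called by limma, while 4 had an unadjusted p under 0.05, near the 28.6% of all probe sets. The median log2 difference was 0.47, against 0.29 for all genes. *Rlim*, a ubiquitin ligase for TRF1, had the highest ratio of that list at 1.78, reading 2.16 and 2.96 against 1.14 and 1.73 (limma adjusted p = 0.132). *Hmbox1*, encoding a homeobox protein of telomeric repeats, followed at 1.68 (limma adjusted p = 0.0954). *Terb1*, a meiotic telomere gene, was in background on every array, at 0.97 to 1.09.

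**Figure D4:**
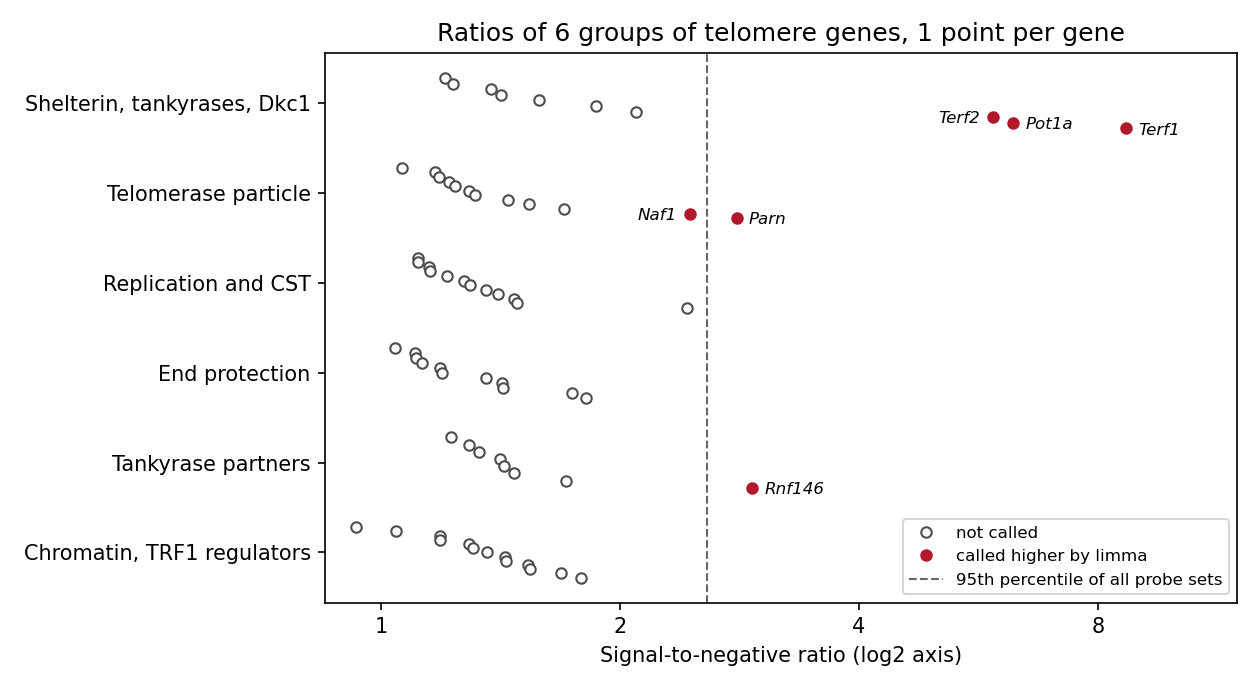
Signal-to-negative ratio (horizontal log2 axis), 1 point per gene, for the shelterin, tankyrase and dyskerin genes and 5 other telomere lists, with filled points for genes limma called higher and a dashed line at the 95th percentile of all probe sets, 2.57. *Terf1*, *Terf2* and *Pot1a* lie at 5.90 to 8.69, and no gene of the other lists exceeds 2.93.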

How the data were processed

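RNA from immunoprecipitates of C2C12 (LKO1) cytoplasmic lysates was hybridized to Affymetrix Mouse Gene 1.0 ST arrays, 2 per group. The authors deposited 1 linear intensity per probe set and array, divided by that array's 5th percentile without subtracting this floor, which pulls the ratio of a dim probe set towards 1. How probes were summarised, and whether background was removed earlier, is not given in the sources used here. Samples were grouped by their titles. Nothing says that replicates came from separate cultures, so p-values measure only the spread between these arrays, which may be technical. In the main fit that spread is pooled over probe sets of like intensity, and a gene's own SD has almost no weight. The number of arrays limits the precision.

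Of 25175 probe sets, 21044 name 1 gene in the platform annotation, 1492 several and 2639 none. Symbols of 20959 were updated by gene identifier from a RefSeq table (GRCm38.p6, names only). Log2 values were compared with limma 3.58.1 in R 4.3.3 (lmFit, eBayes with intensity trend, two-sided, Benjamini-Hochberg over 21044 probe sets, threshold 0.05). The code was first run on simulated data with independent noise and no brightness difference between arrays, so that run does not test the calls made here. Standard errors (SE) follow the trend and hence the spread pooled over probe sets of like intensity. For a gene with several probe sets outside the 10, the brightest was used. Genes not called may hold differences that 2 arrays cannot resolve.

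Named genes were all 10 members, the 3 genes nearest *Terf1*, 5 reference transcripts of the comparison and, from each further list, the genes called, the 2 of highest ratio and the 1 of lowest. The members and lists were chosen with earlier results of these data known. Alternatives were median scaling, quantile normalization, an offset of 1, a background filter, no trend, averaged probe sets, a replicate block and leaving out each array. Of the genes on the further lists, 3 were not analysed here, and no sequences were used.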

Additional observations from a re-analysis of the deposited data

How the results depend on the processing

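The direction of all 10 members held in every alternative run except for *Acd* (-0.32) and *Dkc1* (-0.080) under quantile normalization and *Pot1b* (-0.020) with arrays scaled to their medians. Members called higher by limma, 3 with the values as deposited, numbered 5 with median scaling and 9 with the replicate block. Over all probe sets the shares called higher were 1.95% as deposited, 6.47% with median scaling and 56.1% with the block. Without the intensity trend 0 members were called (8 at an unadjusted p under 0.05). Leaving out an array leaves 1 residual degree of freedom and assumes that the lone array varies like the other group. The median log2 difference of the members, 0.79, became 0.50, 0.20 and 0.49 with median scaling, quantile normalization and the offset, and 0.63 to 1.07 with an array left out. Those scalings moved the median of all probe sets from 0.29 to 0.00, -0.02 and 0.16, and the members' median exceeded that of all genes by 0.50 as deposited and with median scaling, 0.21 with quantile normalization and 0.33 with the offset. The other telomere genes called, 3 of 56, were 8 with median scaling and 43 with the replicate block, beside the same shares of all probe sets. They were 1 with probe sets averaged, where 1.61% of all were called, and 0 without the trend (16 unadjusted). Quantile normalization brought the paralog contrasts to 0.36 (*Terf1* minus *Terf2*), 1.68 (*Pot1a* minus *Pot1b*, the latter in background on 3 arrays) and 0.18 (*Tnks* minus *Tnks2*); the cause was not tested. Over all 21044 probe sets, 411 calls became 1362 with median scaling, 763 with the offset, 11809 with the replicate block and 0 without the trend (4757 unadjusted). Replicate numbers only name the samples here, since no label says that they mark a shared lysate, although the deviations of equal numbers correlated at 0.64. The background filter removed *Pot1b*.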
